A study of Mus musculus with 46 samples.

Results

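The myelin and mature oligodendrocyte genes described here are Mobp, Mog, Mbp, Cnp, Opalin, Trf, Enpp2 and Nkx6-2. They were taken by gene symbol, and each matched 1 row of the 25802 genes in the deposited comparison table. All 8 had a log2 value on every array, and all 8 passed an intensity filter that 9596 of 16254 genes with array values passed. Oligodendrocytes wrap axons of the central nervous system in myelin, a compacted stack of membrane that speeds conduction and feeds the axon. The cells arise from dividing precursors, pass through a newly formed stage, and then switch on the genes of the myelin sheath under transcription factors such as Olig2, Sox10 and Myrf. In the nucleus accumbens, a ventral striatal region of reward and motivation, myelinated fibres run between the spiny neurons.

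RNA of the nucleus accumbens was hybridised to 46 Affymetrix mouse transcriptome arrays, 1 per male mouse, and the study asked how nicotine and its withdrawal act on expression in 2 inbred strains. Nicotine was given at 24 mg per kg per day through a minipump under the skin, and control mice received saline by the same route, for 14 days in every group. All mice therefore carried a pump, and the withdrawal mice, saline mice included, also had surgery to remove it. The C57BL/6J mice comprised 6 on chronic saline, 5 on chronic nicotine, 6 saline mice whose pump was removed 24 h before death and 6 nicotine mice treated in the same way. The DBA/2J mice comprised 6 on chronic saline, 6 on chronic nicotine, 6 saline mice after pump removal and 5 nicotine mice after pump removal. Each label names a separate mouse, and the arrays of a group correlated with the mean of their own group at 0.993 or more.

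The levels are the authors' log2 values, with array medians from 6.524 to 6.631. Differences are given as log2 differences with their standard error (SE) from limma, fitted to 9596 genes with 1 mean per group, and a gene passed at an adjusted p under 0.05 over all these genes. The 19 of 23 striatal spiny neuron markers with array values all passed the intensity filter. The labels give no batch or date and do not say which mice shared a cage, so none of these was tested. In tissue RNA, fewer oligodendrocytes and less RNA per oligodendrocyte cannot be told apart. How well the probes match the sequence of each strain was not tested either. The strain differences are therefore given as differences of array signal, and their share from RNA amount was not tested.

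By role, Mobp, Mbp and Mog encode proteins of the myelin membrane. Mbp holds the inner membrane faces together, Mobp lies in compact myelin, and Mog sits on the outermost surface of the sheath. Cnp encodes a cyclic nucleotide phosphodiesterase that keeps cytoplasmic channels in the sheath open, and Opalin encodes a membrane glycoprotein of oligodendrocytes. Trf encodes transferrin, the iron carrier, and Enpp2 encodes autotaxin, a secreted enzyme that makes the lipid messenger lysophosphatidic acid. Nkx6-2 encodes a homeodomain transcription factor of the oligodendrocyte lineage. The genes lie on separate chromosomes except for Trf and Mobp. In the RefSeq annotation of mouse GRCm38.p6, Mobp spans chr9:120149742-120181488, Trf chr9:103208876-103230286, Mog chr17:37010740-37023398 and Cnp chr11:100574909-100591875. Opalin spans chr19:41061959-41077113, Enpp2 chr15:54838901-54952789 and Nkx6-2 chr7:139579376-139582797. The array features are gene-level clusters of 50 probes (Nkx6-2) to 377 probes (Enpp2), and the coordinates of all 8 overlapped the gene of the same name.

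Promoter windows are shown for Mobp, Opalin, Cnp and Mog, since these genes differed between the strains and had a window at hand. Each window holds 250 bases before and 50 bases after the annotated start, 5′ to 3′ along the gene, from RefSeq on GRCm38.p6, which is the C57BL/6J genome. The capitals mark matches on either strand to 5 searched motifs. The motif of the transcription factor MYRF was searched as CTGGCAC. Cores bound by SOX factors such as SOX10 were searched as ACAAAG, and in a variant form as ACAATG. An E-box was searched as CAGCTG, and the element near many start sites as TATAAA. None of the 5 contains another, and 32851 RefSeq windows of the same length gave the shares of all promoters.
Mobp promoter, chr9:120149492-120149791, plus strand: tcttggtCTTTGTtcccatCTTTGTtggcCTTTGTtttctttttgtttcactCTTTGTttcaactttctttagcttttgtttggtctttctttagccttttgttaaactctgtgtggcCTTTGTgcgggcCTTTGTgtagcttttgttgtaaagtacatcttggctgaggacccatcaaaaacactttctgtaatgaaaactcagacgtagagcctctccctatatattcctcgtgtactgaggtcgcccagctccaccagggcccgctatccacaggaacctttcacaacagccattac
Opalin promoter, chr19:41077064-41077363, minus strand: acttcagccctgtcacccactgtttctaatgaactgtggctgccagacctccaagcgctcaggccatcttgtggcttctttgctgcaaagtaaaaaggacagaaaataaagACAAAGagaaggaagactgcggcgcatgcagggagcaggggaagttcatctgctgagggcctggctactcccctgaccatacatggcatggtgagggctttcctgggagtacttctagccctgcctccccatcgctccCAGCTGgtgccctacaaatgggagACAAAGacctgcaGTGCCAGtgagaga
Cnp promoter, chr11:100574689-100574988, plus strand: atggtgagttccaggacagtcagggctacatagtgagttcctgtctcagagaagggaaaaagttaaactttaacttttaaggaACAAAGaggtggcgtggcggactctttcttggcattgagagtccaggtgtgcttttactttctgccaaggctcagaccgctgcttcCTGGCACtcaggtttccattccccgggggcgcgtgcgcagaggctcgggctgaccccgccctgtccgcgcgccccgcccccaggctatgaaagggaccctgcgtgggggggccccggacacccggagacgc
Mog promoter, chr17:37023349-37023648, minus strand: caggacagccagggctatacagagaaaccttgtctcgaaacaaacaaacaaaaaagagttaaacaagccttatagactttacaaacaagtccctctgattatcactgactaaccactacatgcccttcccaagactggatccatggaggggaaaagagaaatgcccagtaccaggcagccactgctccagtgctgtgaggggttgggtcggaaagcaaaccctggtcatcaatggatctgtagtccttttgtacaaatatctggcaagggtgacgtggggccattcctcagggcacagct
The Mobp window held 6 copies of ACAAAG, all on the reverse strand, where they read CTTTGT. Of all windows, 18.7% held at least 1 copy and 0.00304% held as many as 6, a share that is the Mobp window itself. The copies lie in a T-rich stretch of near repeats, and whether they are separate sites was not tested. The Opalin window held 2 copies of ACAAAG, a number reached in 2.37% of windows. It also held 1 CAGCTG, and 1 CTGGCAC on the reverse strand. The Cnp window held 1 ACAAAG. It also held 1 CTGGCAC, a motif found in 5.01% of all windows. Of all windows 12.6% held ACAATG, the share for CAGCTG was 16.3%, and that for TATAAA 13.6%. The Mog window held none of the 5, nor did that of Nkx6-2 (chr7:139582748-139583047, minus strand). Windows were at hand for 5 of the 8 members, and a match or its lack describes these letters only.

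Members passed the test in the 2 comparisons between strains, and in none of the other 10 comparisons. Among saline mice all 8 were below 0 as DBA/2J minus C57BL/6J, beside 55% of all genes, and Mobp, Opalin, Mog, Cnp and Mbp passed the test. That is 5 of 8, where 31.8% of all genes passed and 19.4% passed as lower. The median of the members was -0.21, beside -0.02 for all genes. Among nicotine mice the same 5 genes passed, all lower in DBA/2J, and 7 of 8 members were below 0, beside 41.5% of all genes. That is again 5 of 8, where 26.2% of all genes passed and 10.8% passed as lower, and the members' median was -0.25 beside 0.02 for all genes. These 2 comparisons use different mice. Of the genes that passed in saline mice 60.9% were lower in DBA/2J, and 80% with arrays centred on their median.

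Mobp showed the widest gap. In DBA/2J saline mice its level ran from 12.777 to 13.501 and in C57BL/6J saline mice from 13.431 to 14.401. All 12 DBA/2J saline mice lay under the C57BL/6J mean, and the ranges touched only at their ends. The difference was -0.82 (SE 0.10, 12 against 12 mice, adjusted p = 1.304e-08), which is 0.566 times the C57BL/6J array signal. Among nicotine mice Mobp ran from 12.462 to 13.511 in DBA/2J and from 13.391 to 14.108 in C57BL/6J, with a difference of -0.76 (SE 0.11, adjusted p = 3.047e-07). All 11 DBA/2J nicotine mice lay under the C57BL/6J mean.

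Arm by arm, Mobp did not overlap between the strains in 3 of 4 arms. Of all genes, 5.04% did not overlap as lower in DBA/2J on chronic saline, 4.47% on chronic nicotine, 6.4% in saline mice after pump removal and 4.09% in nicotine withdrawal. On chronic saline the highest DBA/2J mouse stood at 13.411 and the lowest C57BL/6J mouse at 13.431. On chronic nicotine these were 13.281 and 13.603, and in saline mice after pump removal 13.501 and 13.747. In nicotine withdrawal they overlapped, at 13.511 and 13.391, and the difference of means was smallest there (-0.56, beside -0.78 on chronic saline, -0.95 on chronic nicotine and -0.86 in saline mice after pump removal). Over all 23 mice of each strain, 4 DBA/2J mice lay above the lowest C57BL/6J mouse.

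Opalin, the oligodendrocyte membrane glycoprotein, was next. Its level in saline mice ran from 9.376 to 10.05 in DBA/2J and from 9.53 to 10.651 in C57BL/6J, and all 12 DBA/2J mice lay under the C57BL/6J mean. The difference was -0.49 (SE 0.10, adjusted p = 0.0001214), and among nicotine mice -0.46 (SE 0.10, adjusted p = 0.0005569). The strains did not overlap for Opalin after pump removal, neither in saline mice (highest DBA/2J mouse 10.05, lowest C57BL/6J mouse 10.136) nor in nicotine mice (9.911 and 10.01), and they overlapped in both chronic arms.

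For Mog, the surface protein, saline mice ran from 9.542 to 10.174 in DBA/2J and from 9.497 to 10.636 in C57BL/6J, so the groups overlapped widely. The difference was -0.33 (SE 0.09, adjusted p = 0.005201), and among nicotine mice -0.31 (SE 0.10, adjusted p = 0.01417). Cnp differed by -0.21 in saline mice (SE 0.06, adjusted p = 0.005939) and by -0.24 in nicotine mice (SE 0.06, adjusted p = 0.004464). Mbp differed by -0.21 (SE 0.07, adjusted p = 0.01271) and -0.27 (SE 0.07, adjusted p = 0.00299). For Mog, Cnp and Mbp, all 12 DBA/2J saline mice lay under the C57BL/6J mean although the ranges overlapped.

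Trf, Enpp2 and Nkx6-2 did not pass between strains, and whether their differences differ from those of the other members was not tested. Trf stood at -0.21 in saline mice (SE 0.11, adjusted p = 0.1348), about the size of Cnp and Mbp but with a larger SE, and -0.20 in nicotine mice (SE 0.11, adjusted p = 0.1764). Enpp2 stood at -0.09 (SE 0.10, adjusted p = 0.5312) and -0.20 (SE 0.10, adjusted p = 0.1567). Nkx6-2 stood at -0.04 (95% interval -0.18 to 0.09) and 0.03 (-0.12 to 0.17), so a fall as large as that of Mobp lies outside its intervals. Enpp2 had 8 of 12 DBA/2J saline mice under the C57BL/6J mean, and Trf also 8 of 12.

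**Figure D1:**
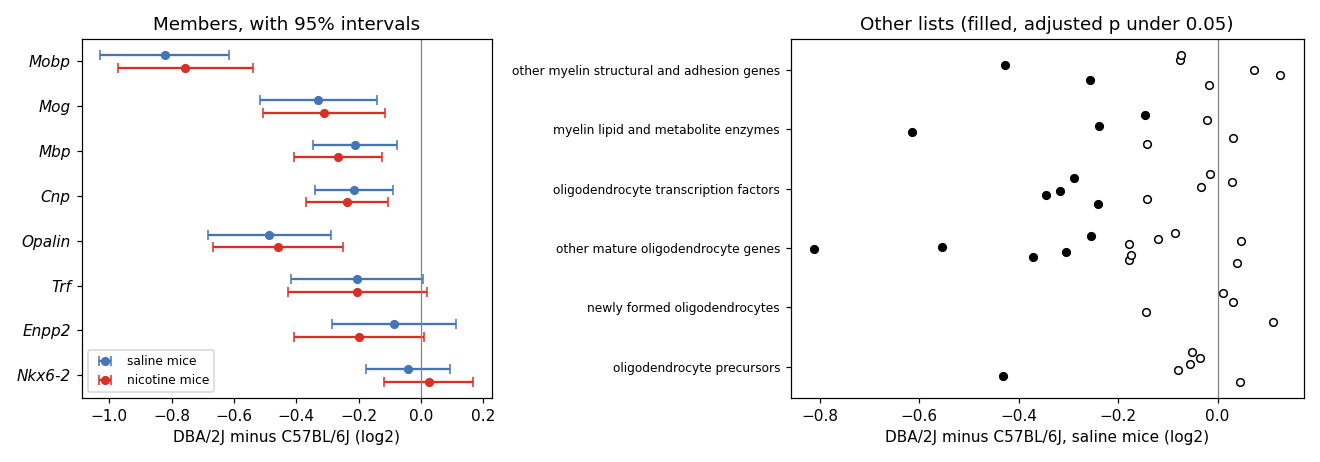
DBA/2J minus C57BL/6J log2 differences. On the left are the 8 members with 95% intervals in saline and nicotine mice, where Mobp lies farthest from 0 (-0.82 and -0.76) and the intervals of Trf, Enpp2 and Nkx6-2 include 0. On the right each point is a gene of another list in saline mice, filled where the adjusted p was under 0.05.

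Other genes of the lineage were read from lists of known markers, of which those with array values could be tested. Of 8 transcription factors of the lineage, 4 were lower in DBA/2J saline mice and 0 higher, with a list median of -0.19. They were Sox10 (-0.32, SE 0.06, adjusted p = 2.981e-05), Olig2 (-0.35, SE 0.07, adjusted p = 0.0001688), Zfp488 (-0.29, adjusted p = 0.00161) and Myrf (-0.24, adjusted p = 0.007016), the last a direct activator of myelin genes. Among nicotine mice 3 of the 8 were lower, namely Sox10 (-0.40, adjusted p = 1.048e-06), Zfp488 (-0.31) and Myrf (-0.22).

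Of 12 other mature oligodendrocyte genes, 5 were lower and 0 higher in saline mice (list median -0.18). The cytokine Il33 fell by 0.81 (SE 0.09, adjusted p = 2.227e-10) and the protease Klk6 by 0.55 (SE 0.10, adjusted p = 2.839e-05), with the chaperone Cryab at -0.37 and the hedgehog-binding protein Hhip at -0.30. In nicotine mice 5 of the 12 were lower and 1 higher, with Il33 at -0.90 and Klk6 at -0.62. Of 6 enzymes of myelin lipids and metabolites, 3 were lower in saline mice, led by the fatty acid elongase Elovl7 (-0.61, SE 0.07, adjusted p = 1.348e-09), with Fa2h, which hydroxylates myelin lipids, at -0.24 and the creatine enzyme Gamt at -0.15. Only Elovl7 of the 6 passed in nicotine mice (-0.55, adjusted p = 7.567e-08).

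Not every gene of the sheath was lower. Of 7 other structural and adhesion genes of myelin, the membrane protein Pllp (-0.43, adjusted p = 0.0008176) and the adhesion molecule Jam3 (-0.26, adjusted p = 0.0001951) passed in saline mice, and 0 passed in nicotine mice, where 2 had an unadjusted p under 0.05. The list median was -0.07 in saline mice. Of 4 genes of newly formed oligodendrocytes 0 passed (median 0.02, and 0 at an unadjusted p under 0.05), and of 6 precursor genes only Cacng4, a subunit of the precursor's glutamate receptors that neurons express too, passed (-0.43, adjusted p = 4.792e-07).

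Markers of other cells also moved with strain. In saline mice 8 of 19 striatal spiny neuron markers were lower in DBA/2J (list median -0.15), among them the dopamine receptor Drd2 (-0.71, adjusted p = 1.924e-07). Of 8 cortical neuron markers, 1 was lower and 1 higher. Choroid plexus markers went the other way, and all 7 with array values were higher in DBA/2J saline mice. The differences ran from 0.05 (Otx2) to 0.38 (Clic6, an ion channel protein also made elsewhere). Without the intensity filter 40.9% of all genes were lower in DBA/2J saline mice, beside 55% of those that passed it. Genes that failed the filter were thus more often higher, and whether these markers reflect choroid plexus content was not tested. Clic6 alone passed the intensity filter (adjusted p = 0.01021), and Ttr, the defining transcript of that tissue, lay at the 30.7th percentile of array features with a difference of 0.18. With the mean of these 7 genes in the fit, Mobp still passed in saline mice (-0.57, adjusted p = 0.0007249), but the calls of Opalin (-0.25, adjusted p = 0.1407), Cnp (-0.06), Mog (0.00) and Mbp (0.01) ended. In nicotine mice Mobp (-0.58) and Opalin (-0.30) then passed, and Mog, Mbp and Cnp did not. That mean itself differed by strain in every arm (0.09 in DBA/2J and -0.08 in C57BL/6J on chronic saline), so the fit cannot tell the marker mean and the strain apart fully. With the cortical marker mean in the fit all 5 calls held in both comparisons. The part of other cell types in the strain difference was not tested further.

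**Figure D2:**
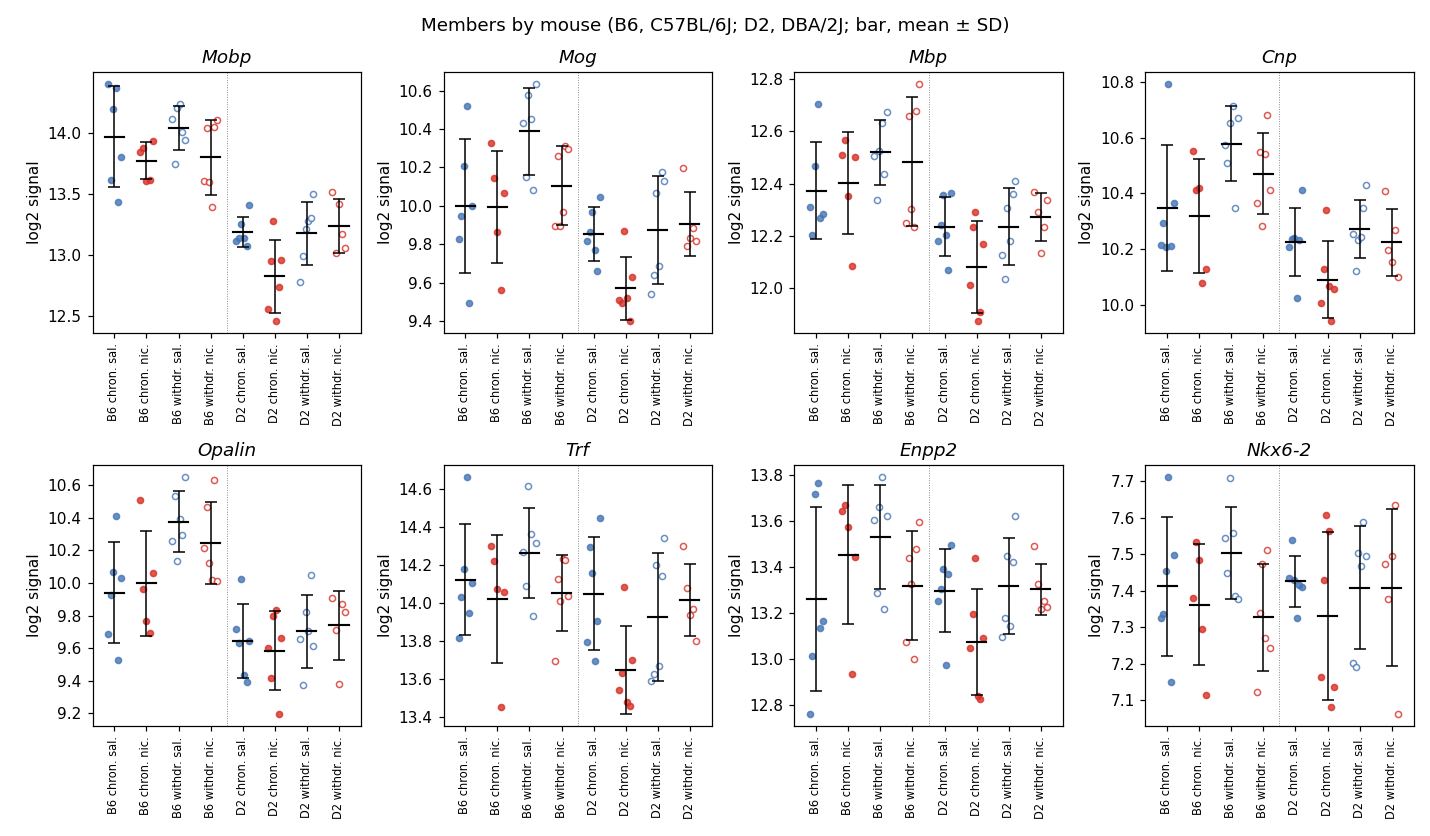
Log2 level of each member in every mouse, with the mean and SD of each group, saline in blue, nicotine in red, and filled points for chronic groups. Mobp separates the strains, left and right of the dotted line, almost completely (4 of 23 DBA/2J mice lie above the lowest C57BL/6J mouse), and Nkx6-2 does not. Each panel has its own axis, which does not start at 0.

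Across the 8 groups the members shared the same extremes. The group mean was highest in C57BL/6J saline mice after pump removal for 8 of 8 members, and lowest in DBA/2J mice on chronic nicotine for 7 of 8, with Nkx6-2 lowest in C57BL/6J nicotine withdrawal. Averaged over the members, and as deviations from their mean over all arrays, C57BL/6J saline mice after pump removal stood at 0.31 ± 0.13 (SD, n = 6) and DBA/2J mice on chronic nicotine at -0.32 ± 0.18 (SD, n = 6). The other C57BL/6J groups lay at 0.09 ± 0.26 on chronic saline, 0.07 ± 0.21 on chronic nicotine and 0.13 ± 0.17 in withdrawal. The other DBA/2J groups lay at -0.10 ± 0.13 on chronic saline, -0.10 ± 0.19 in saline mice after pump removal and -0.08 ± 0.12 in nicotine withdrawal. In the order of group means of Mobp, all 4 C57BL/6J groups stood above all 4 DBA/2J groups, and no neighbours within a strain that were compared passed the test.

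In DBA/2J mice on chronic nicotine the members lay below chronic saline, but none passed the test. All 8 differences were below 0, with a median of -0.19, where 38% of all genes were below 0 and their median was 0.02. The share of genes below 0 was 26.4% with arrays centred on their median and 50.5% after quantile normalisation, and all 8 members stayed below 0 under both. None of the 9596 genes passed here (0%), and 8% had an unadjusted p under 0.05, of which 1.91% of all genes were lower.

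Trf, the iron carrier, ran from 13.461 to 14.086 (median 13.587) in the 6 nicotine mice and from 13.695 to 14.446 (median 14.031) in the 6 saline mice. In 5 of 6 nicotine mice Trf was under the mean of the saline group, and the groups overlapped. The difference was -0.40 (SE 0.15, unadjusted p = 0.01068, adjusted p = 0.6067). Mobp ran from 12.462 to 13.281 (median 12.845) on nicotine and from 13.072 to 13.411 (median 13.136) on saline, again with 5 of 6 treated mice below the control mean. Its difference was -0.36 (SE 0.15, unadjusted p = 0.01651, adjusted p = 0.6067). Mog ran from 9.403 to 9.87 (median 9.515) against 9.659 to 10.047 (median 9.84), a difference of -0.28 (SE 0.13, unadjusted p = 0.03745, adjusted p = 0.6067). These 3 were the members with an unadjusted p under 0.05.

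The other members stood at -0.23 (Enpp2), -0.15 (Mbp), -0.13 (Cnp), -0.09 (Nkx6-2) and -0.06 (Opalin). For Enpp2, Mbp and Cnp 5 of 6 treated mice were below the control mean, and for Nkx6-2 and Opalin 3 of 6. Around the members, 12 of 12 other mature oligodendrocyte genes were below 0 (median -0.16), as were 6 of 7 structural genes (median -0.11) and 5 of 6 lipid enzymes (median -0.09). Of 8 transcription factors 6 were below 0, with Sox10 at -0.22 (unadjusted p = 0.01212) and the list median at -0.02. By gene, the precursor list went the other way, with 5 of 6 genes above 0 (median 0.11). Among them were Cacng4 at 0.24 (unadjusted p = 0.01184) and the transcription factor Sox6 at 0.12. None of these genes passed. The mean precursor level, as a deviation from its mean over all arrays, was 0.03 ± 0.19 (SD, n = 6) in nicotine mice. In saline mice it was -0.06 ± 0.08 (SD, n = 6). Nicotine mouse 5 (0.37) and mouse 4 (0.13) stood highest, and the other nicotine mice lay from -0.11 to -0.04.

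Neuronal markers also shifted in this comparison. In DBA/2J mice on chronic nicotine 7 of 8 cortical excitatory neuron markers were below 0 (median -0.35), and 18 of 19 striatal markers were above 0 (median 0.22). As a deviation from its mean over all arrays, the mean cortical marker level ran from -1.16 to 0.36 in nicotine mice. In saline mice it ran from -0.42 to 0.30. The striatal level ran from -0.20 to 0.30 in nicotine mice and from -0.43 to 0.05 in saline mice. Nicotine mouse 5 was lowest in the members' mean (-0.52) and highest in the cortical level (0.36). Nicotine mouse 1 stood at -0.41 in the members' mean and -1.16 in the cortical level. Among the saline mice, mouse 4 was lowest in both (-0.27 and -0.42) and mouse 6 highest in both (0.06 and 0.30). Over all 46 arrays the members' mean and the cortical level correlated within groups at r = 0.515. With the cortical mean in the fit all 8 members stayed below 0, from -0.27 (Mobp) to -0.01 (Opalin), and 0 of the 8 had an unadjusted p under 0.05. The part of dissection or of other cells in this difference was not tested further.

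In C57BL/6J mice on chronic nicotine the members lay on both sides of 0. Of the 8 members 5 were below 0, from -0.20 (Mobp, SE 0.15) to 0.19 (Enpp2, SE 0.15), with a median of -0.02, where 65.5% of all genes were below 0 (77.5% with arrays centred on their median) at a median of -0.03. Trf stood at -0.10 and Opalin at 0.06. None of the 8, and 0% of all genes, passed, and no member had an unadjusted p under 0.05, which 4.68% of all genes had. Mobp was 13.842, 13.871, 13.603, 13.617 and 13.93 in the 5 nicotine mice, all under the saline mean of 13.968, while the saline mice ran from 13.431 to 14.401. The 95% intervals reached -0.50 for Mobp and 0.49 for Enpp2.

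The strain difference of the chronic response was below 0 in 8 of 8 members and passed in none, nor in any gene (0%). Enpp2 had the largest, -0.42 (SE 0.20, unadjusted p = 0.04407, adjusted p = 0.5015), then Trf at -0.30 (SE 0.22) and Mog at -0.28 (SE 0.19), and Nkx6-2 stood at -0.04, turning to 0.01 with arrays centred on their median. Of all genes 32.4% were below 0, 9.95% had an unadjusted p under 0.05 and 1.42% had one and were lower, as Enpp2 alone of the members did (95% interval -0.83 to -0.01).

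**Figure D3:**
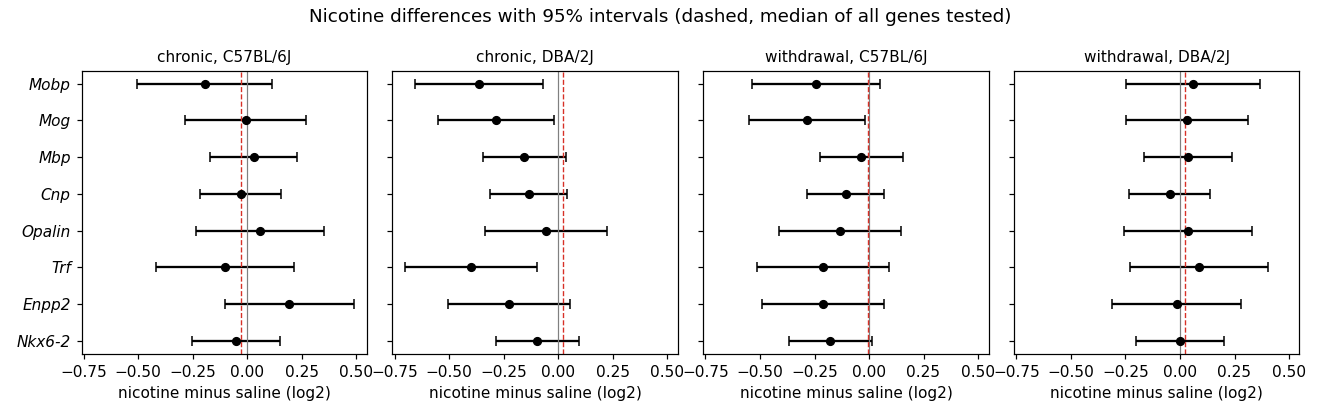
Nicotine minus saline log2 difference of each member in the 4 pairs of groups, with 95% intervals from limma and a dashed line at the median of all genes tested. All 8 points lie below 0 in chronic DBA/2J and in withdrawal C57BL/6J, and intervals that leave 0 out are those of Trf, Mobp and Mog in the former and Mog in the latter.

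The withdrawal comparison set nicotine against saline mice that had both lost their pump. In C57BL/6J mice 24 h after pump removal all 8 members were lower on nicotine than on saline, with a median of -0.19 beside -0.01 for all genes, of which 53.1% were below 0 (68.9% after quantile normalisation). None passed, nor did any gene (0%). Mog ran from 9.894 to 10.313 (median 10.117) in nicotine mice and from 10.081 to 10.636 (median 10.442) in saline mice, and all 6 treated mice were below the control mean. Its difference was -0.28 (SE 0.13, unadjusted p = 0.03742, adjusted p = 0.9999), and it was the only member with an unadjusted p under 0.05, where 2.99% of all genes had one and 1.87% were lower.

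The others stood at -0.24 (Mobp), -0.21 (Enpp2), -0.21 (Trf), -0.18 (Nkx6-2), -0.13 (Opalin), -0.11 (Cnp) and -0.03 (Mbp). For Trf 6 of 6 treated mice were below the control mean, and for Mbp and Mobp 3 of 6. Mbp turned above 0 with array weights and with either marker mean in the fit. Of the other lists, 10 of 12 mature genes, 6 of 6 lipid enzymes and 6 of 7 structural genes were below 0 (medians -0.11, -0.11 and -0.09), with the sphingosine phosphate receptor S1pr5 at -0.32 (unadjusted p = 0.01299) and the newly formed cell marker Enpp6 at -0.30 (unadjusted p = 0.03732). Cortical markers were below 0 in 8 of 8 (median -0.25) and striatal markers above 0 in 18 of 19 (median 0.16). With the cortical mean, the choroid plexus mean or array weights in the fit, no member had an unadjusted p under 0.05. The count was 2 with mouse number as a block or only these groups fitted, and 3 after quantile normalisation. On leaving out 1 mouse, Mog had such a p in 5 of 12 fits.

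In DBA/2J withdrawal 2 of 8 members were below 0, and the values ran from -0.05 (Cnp, SE 0.09) to 0.09 (Trf, SE 0.16), with a median of 0.03 beside 0.02 for all genes. None passed (0% of all genes), and none had an unadjusted p under 0.05, which 5.45% of all genes had. Of all genes 37.9% were below 0. The member count below 0 was 4 of 8 with array weights (41.5% of all genes) or the cortical mean in the fit (38.7%). It was 3 of 8 with the choroid plexus mean (38.3%), and 1 of 8 with centred arrays (20.7%) or quantile normalisation (29.7%). On leaving out 1 mouse, the difference in the members' mean ran from -0.0249 to 0.0641. Mobp was 13.511, 13.015, 13.419, 13.169 and 13.06 in the 5 nicotine mice and ran from 12.777 to 13.501 in the saline mice, so the groups covered each other. The strain difference of the withdrawal response was above 0 in 8 of 8 members, from 0.06 (Cnp, SE 0.13) to 0.31 (Mog, SE 0.19, unadjusted p = 0.1072). Of all genes 39.9% were below 0, 7.04% had an unadjusted p under 0.05 and 0% passed.

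The nicotine difference at withdrawal minus that on chronic treatment was above 0 in 8 of 8 members in DBA/2J, led by Trf at 0.49 (SE 0.22, unadjusted p = 0.02959, adjusted p = 0.9805) and Mobp at 0.42 (SE 0.21, unadjusted p = 0.05211), with Cnp lowest at 0.09. In C57BL/6J it was below 0 in 8 of 8, from -0.41 (Enpp2, SE 0.20, unadjusted p = 0.05121) to -0.05 (Mobp). None passed, nor did any gene (0%) in either strain. In DBA/2J 52% of all genes were below 0, 3.74% had an unadjusted p under 0.05, and 1.93% had one and were above 0, as Trf alone of the members did. In C57BL/6J 39% were below 0 and 2.5% had an unadjusted p under 0.05, which no member had. These differences reuse the groups of the comparisons above and add no mice.

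Pump removal was compared in saline mice, which never had nicotine. In C57BL/6J all 8 members were higher after removal than on chronic saline, with a median of 0.19 beside -0.01 for all genes, of which 53.7% were below 0, but none passed (0% of all genes). Opalin ran from 10.136 to 10.651 (median 10.342) after removal and from 9.53 to 10.412 (median 9.977) in other mice on chronic saline. All 6 mice after removal lay above the mean of the chronic mice. The difference was 0.44 (SE 0.14, unadjusted p = 0.003071, adjusted p = 0.9981). Mog was higher by 0.39 (SE 0.13, unadjusted p = 0.005078) and Cnp by 0.23 (SE 0.09, unadjusted p = 0.01147), each with 6 of 6 mice above the chronic mean and with overlapping ranges.

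These 3 of 8 members had an unadjusted p under 0.05, where 3.74% of all genes had one and 0.98% were higher. Enpp2 stood at 0.27, Mbp at 0.15, Trf at 0.14, Nkx6-2 at 0.09 and Mobp at 0.07. Cortical markers were above 0 in 6 of 8 (median 0.20), with a mean level of 0.01 ± 0.50 (SD, n = 6) on chronic saline and 0.18 ± 0.27 (SD, n = 6) after removal, and Clic6 stood at -0.37 (unadjusted p = 0.03378). With the cortical or the choroid plexus mean in the fit all 8 members stayed above 0, and Opalin (0.41 with either), Mog (0.33 and 0.35) and Cnp (0.21 with either) kept an unadjusted p under 0.05. The C57BL/6J saline mice after pump removal are also the controls of the C57BL/6J withdrawal comparison, so the 2 sets of differences share that group and their opposite signs are not independent. In the members' mean the C57BL/6J withdrawal nicotine mice (0.13) lay within 1 SD of chronic saline (0.09 ± 0.26). So did the C57BL/6J saline mice after pump removal (0.31), so this range does not separate the groups. In DBA/2J pump removal gave values from -0.12 (Trf, SE 0.15) to 0.06 (Opalin, SE 0.14), with a median of 0.01. Of the members 3 of 8 were below 0, beside 45.6% of all genes, and none passed (0%) or had an unadjusted p under 0.05, which 4.05% of all genes had. The count below 0 was 6 of 8 after quantile normalisation, where 63% of all genes were below 0, and 8 of 8 with the choroid plexus mean in the fit, so these members have no settled sign.

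The authors' S-scores, signed standardised differences of each nicotine mouse from the saline mice that match it in strain and phase, give values by mouse. In DBA/2J on chronic nicotine Trf averaged -3.60 (SD 2.23, n = 6 mice), from -5.84 to 0.70, and Mog averaged -1.65 (SD 0.87) with 6 of 6 mice below 0. In C57BL/6J withdrawal Mog averaged -1.80 (SD 1.20) and Trf -2.75 (SD 2.42), both with 6 of 6 mice below 0. No member passed in any of the 4 comparisons with the spread of the saline mice counted, nor did any gene (0%). In chronic DBA/2J 2 of 8 members had an unadjusted p under 0.05, Trf (0.01892) and Mog (0.01918), beside 1459 of all 25802 genes. In C57BL/6J withdrawal 1 of 8 had one, Mog (0.0117), beside 764 of all genes.

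The scores also cover lineage genes without array values. The counts here are of whole lists, so they include genes already counted from array values. In chronic DBA/2J the mean score was below 0 for 16 of 16 structural genes (median -0.89), 11 of 11 lipid enzymes (median -0.87), 21 of 22 mature genes (median -0.97) and 6 of 7 newly formed cell genes (median -1.49), beside 55.3% of all 25802 genes. Transcription factors were below 0 in 7 of 10 (median -0.42) and precursor genes in 2 of 11 (median 0.37). Cortical markers were below 0 in 14 of 16 (median -1.52) and striatal markers in 1 of 23 (median 1.91). Markers of meninges and fibroblasts were below 0 in 11 of 11 (median -1.10), endothelium and pericytes in 12 of 16 (median -0.45) and choroid plexus in 9 of 12 (median -0.29). In C57BL/6J withdrawal 14 of 16 structural genes, 10 of 11 lipid enzymes and 18 of 22 mature genes were below 0, beside 51.2% of all genes. Newly formed cell genes were below 0 in 7 of 7 and transcription factors in 6 of 10. Astrocyte markers were then below 0 in 15 of 17 (median -0.57) and cortical markers in 13 of 16 (median -1.05). The scores come from the same arrays and are no separate evidence.

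Within groups the members varied together. Over 46 arrays, after removing each group's mean, the correlation of a member with the mean of the other 7 ran from 0.556 (Opalin) and 0.575 (Nkx6-2) to 0.832 (Trf) and 0.925 (Mog). Among pairs it ran from 0.273 (Mobp with Opalin) to 0.836 (Mog with Trf). Mobp, the member with the widest strain gap, correlated at 0.632 with the others. The within-group SD of Trf exceeded that of 95.6% of the genes tested and that of Cnp 68.7%. These values describe arrays that share processing and scaling.

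**Figure D4:**
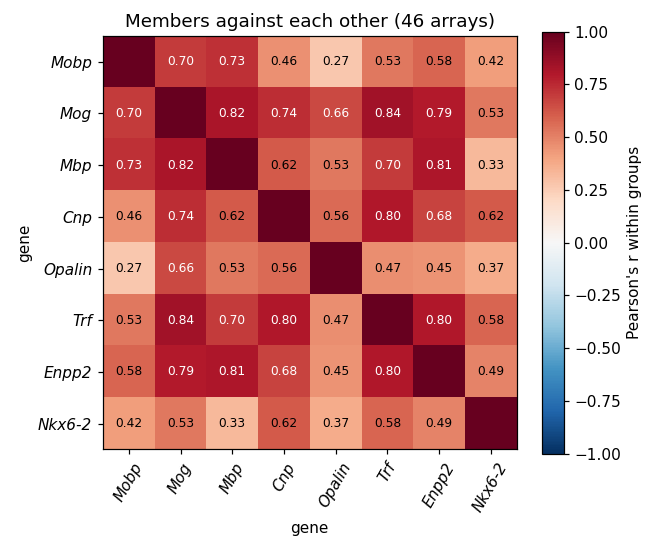
Pearson's r between members over 46 arrays, after subtracting group means. All 28 pairs are above 0, from 0.27 (Mobp with Opalin) to 0.84 (Mog with Trf).

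The 10 other genes most like the members within groups were Mag (r = 0.908), Plekhh1 (0.906), Myo1d (0.887), Ndrg1 (0.868), Pde8a (0.843), Ttyh2 (0.835), Fa2h (0.829), Aspa (0.827), Serpinb1a (0.813) and Enpp6 (0.808). Mag is the adhesion molecule of the inner sheath, and Aspa cleaves N-acetylaspartate to supply acetate for lipids. Of 9588 genes compared, 42 had r above 0.7 and 338 above 0.5. At the other end were the adhesion molecule Alcam (-0.679), the kinase subunit Prkar2b (-0.658), Dock11 (-0.635), the transcription factor Isl1 (-0.627) and the neurotrophin receptor Ntrk3 (-0.625).

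As list means, the other structural myelin genes followed the members at r = 0.942, mature genes at 0.879, lipid enzymes at 0.872, transcription factors at 0.767 and newly formed cell genes at 0.594, while precursor genes stood at 0.127. Cortical neuron markers stood at 0.515 and striatal markers at -0.485, with astrocytes at 0.302, endothelium at 0.221, microglia at 0.165 and meninges and fibroblasts at -0.268. The choroid plexus list, here Clic6 alone, stood lowest of the lists at -0.495. By member, the correlation with cortical markers ran from 0.217 (Opalin) to 0.559 (Mog), and that with striatal markers from -0.606 (Enpp2) to -0.15 (Opalin). Enpp2 is also made by the choroid plexus, and its correlation was 0.184 with Ttr and -0.484 with Clic6. With Clic6 all 8 members correlated below 0, from -0.566 (Mog) to -0.175 (Nkx6-2). With Ttr the correlations of the members ran from -0.117 (Nkx6-2) to 0.184 (Enpp2).

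**Figure D5:**
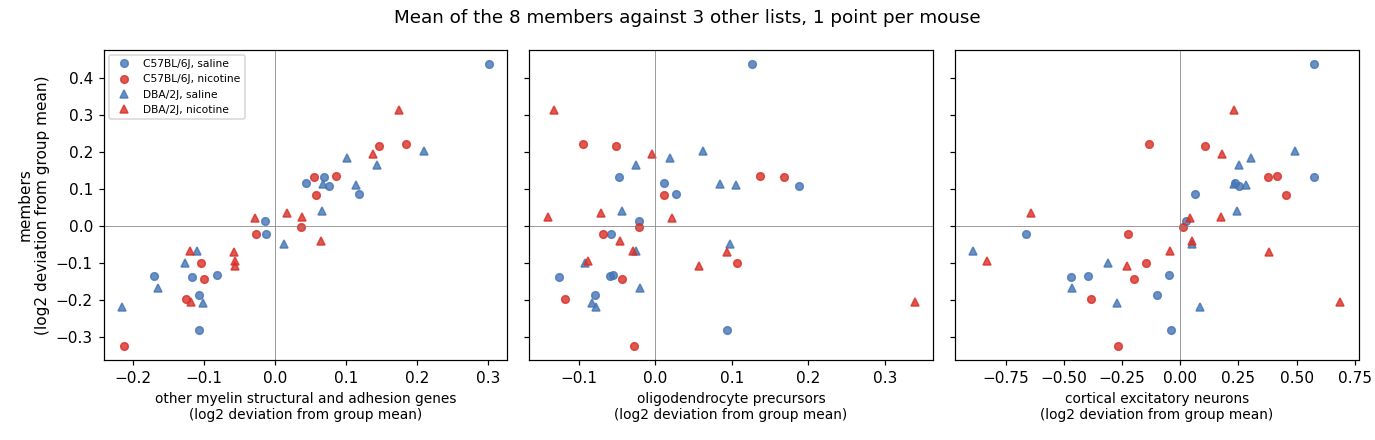
Mean of the 8 members against the mean of 3 other lists, 1 point per mouse, as log2 deviations from the group mean. The points lie along a line for the other structural myelin genes (r = 0.942), scatter for precursor genes (r = 0.127) and rise loosely with cortical neuron markers (r = 0.515).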

How the data were processed

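RNA of 46 mice was measured, and the authors deposited log2 values of 48088 array features (6732 of them controls). How these were summarised, whether and how they were scaled, and on which genome build, is not given in the sources used here. A deposited table holds 1 score column (S-score) per nicotine mouse (22 columns), computed by the authors against the saline mice of that strain and phase, per the file headers. The same table gives gene names, coordinates and the count of probes behind each feature, per the file headers. Array values of 9548 genes of that table, mostly of chromosomes 1 to 6, were not analysed here. The brightest feature of each gene was kept if above the 50th percentile of non-control features on at least 5 arrays. limma 3.58.1 in R 4.3.3 (with data.table, version 1.17.8) fitted 8 group means for 12 comparisons, with 38 residual and 4.14 prior degrees of freedom. Tests were two-sided, with Benjamini-Hochberg adjustment over 9596 genes and a threshold of 0.05, and the fit was tested on simulated data. A fold is on the scale of the deposited log2 values. S-scores were tested with limma using an error that counts nicotine and saline mice. Promoter windows were searched in Python 3.11.15, and figures drawn with matplotlib 3.10.9 and pandas 2.3.3. The number of arrays limits the precision.

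The members and lists were chosen with earlier results of these data known, so list counts and medians have no p. Of each other list, up to 4 passing genes with the smallest p are named, or the 2 with the smallest unadjusted p where none passed. Mouse numbers in the labels did not pair the samples: of 22 same-numbered pairs 2 correlated above 0.1, from -0.35 to 0.199. Alternatives were other filters, scalings, weights, priors, marker covariates and leaving out each mouse.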

Additional observations from a re-analysis of the deposited data

Results flagged for a closer look

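In 3 of 72 sets of values examined (8 members and their mean in 8 groups), 1 mouse stood apart from the rest of its group by Dixon's criterion, which chance meets in about 1 of 20 sets. Mog was 10.196 in DBA/2J nicotine withdrawal mouse 1, while the other 4 mice lay between 9.792 and 9.886. Cnp was 10.794 in C57BL/6J chronic saline mouse 4, while the other 5 lay between 10.207 and 10.367. Trf was 13.452 in C57BL/6J chronic nicotine mouse 4, while the other 4 lay between 14.061 and 14.301.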

How the results depend on the processing

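Counts of genes that passed changed with the filter, the samples fitted or 1 mouse. With only genes above the 75th percentile, which removes genes, 1995 genes passed between strains in saline mice (3052 as reported) and 1610 in nicotine mice (2510). Fitting only its own groups gave 3 genes for DBA/2J withdrawal, beside 0 in the fit of all groups. Leaving out 1 mouse gave 0 to 5 genes for the strain difference of the chronic response (5 without C57BL/6J chronic saline mouse 3) and 0 to 1 for that of withdrawal (1 without DBA/2J withdrawal nicotine mouse 5). With arrays centred on their median, 80% of strain calls in saline mice were lower, beside 60.9% as reported, and with the choroid plexus mean 46.6%. Mouse number as a replicate block gave 3072 and 2505 strain calls in saline and nicotine mice and changed no member's call.

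The 5 strain calls among the members held in both comparisons under every filter, scaling, weight and prior tried and without any 1 mouse (for Mobp -0.88 to -0.78 in saline mice), and ended only with the choroid plexus mean, which left 1 of 5 in saline and 2 of 5 in nicotine mice. With it, saline values turned to 0.0046 (Mog), 0.0143 (Mbp), 0.0863 (Trf), 0.1633 (Enpp2) and 0.0825 (Nkx6-2), and Opalin after pump removal in DBA/2J to -0.0222, where 8 of 8 members were then below 0, against 3 as reported. Mbp in C57BL/6J withdrawal turned to 0.001 with array weights, 0.0059 with the cortical mean and 0.0363 with the choroid mean. The chronic strain difference of Nkx6-2 turned to 0.0067 with centred arrays, and the C57BL/6J phase difference of Mobp to 0.0075 with the cortical mean. Enpp2 between strains in nicotine mice passed without C57BL/6J chronic nicotine mouse 4 (-0.26, adjusted p = 0.04878).

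Signs also turned on leaving out 1 mouse, all for values that had not passed. Not every member was followed in each comparison. The ranges were -0.0945 to 0.0152 for Mbp in C57BL/6J withdrawal, -0.1066 to 0.0213 for Opalin in chronic DBA/2J, and -0.0699 to 0.1523 for Opalin and -0.1715 to 0.0408 for Trf in chronic C57BL/6J. They were -0.0353 to 0.1586 for Mobp at C57BL/6J pump removal, -0.0076 to 0.1383 for Opalin at DBA/2J pump removal and -0.0056 to 0.0684 for Nkx6-2 between strains in nicotine mice. They were -0.1329 to 0.0609 for the C57BL/6J phase difference of Mobp and -0.1058 to 0.0083 for the chronic strain difference of Nkx6-2. The covariate fits and the removal of single mice or groups show where values turned, and the causes were not tested. With 5 or 6 mice a group, the SE of a member's nicotine difference within a strain and phase ran from 0.09 (Cnp) to 0.16 (Trf).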
